A study of Mus musculus with 8 samples.

Results

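The serpin protease inhibitors were examined in the paws of mice with collagen-induced arthritis. The members were the genes whose array probe set carries exactly 1 symbol beginning with Serpin, except Serpinh1 and Serping1, which the selection leaves out. This gave 46 genes of the 19938 genes named on the array, each with 1 probe set: 24 of clade B (symbols beginning with Serpinb) and 22 of the secreted clades (Serpina, Serpinc, Serpind, Serpine, Serpinf and Serpini). The selection used names and not measured values. One of the 46, Serpina4-ps1, is annotated as a pseudogene.

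Serpins are suicide inhibitors. A protease cleaves their exposed reactive loop, the loop inserts into the body of the serpin, and the protease is left trapped and distorted in a covalent complex. The secreted clades include the plasma inhibitors of coagulation, fibrinolysis and leukocyte proteases, made largely in liver. Clade B serpins lack a classical signal peptide and act mainly inside cells, and several are known from the stratified epithelium of skin, where they meet kallikreins, plasminogen activators and cathepsins. Some members of either class inhibit no protease and carry hormones or act on cells.

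All mice were male DBA/1J, aged 8 to 10 weeks, in 4 groups of 8. The CIA group was injected at the tail base with 150 µg of type II collagen from chicken, mixed with complete Freund adjuvant, and, in week 3, a booster in incomplete Freund adjuvant. The adjuvant group received the same adjuvants without collagen. The CIA+MLIF and adjuvant+MLIF groups in addition received MLIF, the monocyte locomotion inhibitory factor of Entamoeba histolytica, through the nose each week: from 1 week before the first collagen injection in the CIA+MLIF group, and during 9 weeks in the adjuvant+MLIF group. No group without adjuvant was analysed here, so every contrast lies on an adjuvant background. Per the labels, tissue was taken 4 weeks after the booster. The series text differs from the labels on this time, and the labels were followed. Each group has 2 Affymetrix arrays, 8 in all, called biological replicates in the labels. Whether an array holds 1 mouse or a pool is not stated, so p-values measure only the spread between these arrays.

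Signals are log2 values, so a difference of 1 is a doubling of signal. The 2 arrays of a group correlated at 0.988 to 0.999 across probe sets. The SD of their difference was 0.094 in adjuvant+MLIF, 0.207 in adjuvant, 0.263 in CIA+MLIF and 0.324 in CIA. The fit pools the spread of all groups, so the close adjuvant+MLIF pair enters the error of every contrast. The first CIA array stood apart, with a median of 6.66 over all tested probe sets, where the 7 others lay between 7.07 and 7.10. Array control entries had medians of 5.88 on that array and 6.29 to 6.44 on the others. Of the 46 serpins, 5 lay above the control median on all 8 arrays and 27 on none, so the size of a change that starts below it is not well determined. The tissue label was checked on 7 markers of cartilage and synovial lining, of which 6 lay above the control median on every array. That list says nothing about skin. Of 13 keratinocyte markers, 6 or 7 lay above the control median on the arrays without collagen, and 12 or 13 on the collagen arrays. Whether the excised tissue held the same share of skin in all groups was not tested. Near-identical paralogs (the Serpinb3, Serpinb6, Serpinb9, Serpina1 and Serpina3 families) can share probes, and their values are uncertain in that sense.

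The clade B genes lie in 3 runs of neighbours in the RefSeq gene order of GRCm38.p6, and the rises described below fell mainly in one of them, the 12 genes from Serpinb5 to Serpinb8 on chromosome 1. This run was picked for its rises in these data, and its promoters are shown first. RefSeq windows from 250 bases before to 50 bases after the annotated start were at hand for 40 of the 46 serpins. They were searched on both strands for TGANTCA, the core recognised by AP-1 (Fos and Jun dimers) with its middle base left free. The 250 bases before the start of the 2 genes with the largest rises are given 5′ to 3′, in lower case with the match in capitals. Serpinb5 spans chr1:106860925-106861174 and Serpinb12 spans chr1:106934199-106934448, both on the plus strand.
Serpinb5: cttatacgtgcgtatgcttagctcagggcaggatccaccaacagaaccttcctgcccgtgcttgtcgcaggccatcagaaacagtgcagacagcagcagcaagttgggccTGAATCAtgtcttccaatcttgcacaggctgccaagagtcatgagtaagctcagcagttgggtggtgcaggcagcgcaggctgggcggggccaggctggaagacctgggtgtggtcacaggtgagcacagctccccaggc
Serpinb12: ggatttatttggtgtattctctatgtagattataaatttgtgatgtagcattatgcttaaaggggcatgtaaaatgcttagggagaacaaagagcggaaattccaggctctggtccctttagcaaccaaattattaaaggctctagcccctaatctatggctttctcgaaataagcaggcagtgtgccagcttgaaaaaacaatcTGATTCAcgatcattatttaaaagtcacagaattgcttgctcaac

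The matches in 4 further genes of the run are shown with 20 bases on either side, all on the plus strand of chromosome 1, to let the middle base and its surroundings be compared. They lie at chr1:107362113-107362159 and chr1:107362218-107362264 for the 2 sites of Serpinb11, chr1:107422624-107422670 for Serpinb7, chr1:107511309-107511355 for Serpinb2 and chr1:107528929-107528975 for Serpinb10.
Serpinb11, first site: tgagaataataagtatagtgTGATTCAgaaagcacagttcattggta
Serpinb11, second site: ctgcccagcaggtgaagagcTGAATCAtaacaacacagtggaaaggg
Serpinb7: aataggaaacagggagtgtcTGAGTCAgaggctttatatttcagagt
Serpinb2: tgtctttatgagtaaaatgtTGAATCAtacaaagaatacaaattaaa
Serpinb10: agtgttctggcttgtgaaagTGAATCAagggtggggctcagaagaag

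Serpinb8 held the other 2 of the 9 sites of the run. In the run, 8 of 12 windows held a match (66.7%) and 7 of 10 genes did: Serpinb2, Serpinb5, Serpinb7, Serpinb8, Serpinb10, Serpinb11 and Serpinb12, and not Serpinb3a, Serpinb3c or Serpinb3d. Serpinb2 has 2 overlapping windows that hold the same site, which counts in both. Serpinb12 has a second annotated start whose window held none. Over all RefSeq windows of this length, 7.81% held a match (2564 of 32817), and 8.98% of genes did (2424 of 26994). The other 2 clade B runs held 0 in 10 and 0 in 6 windows, and the secreted clades 2 in 20 (10.0%), in Serpina1c and Serpina1d. The middle base sets the match to the usual AP-1 sequence: 3 of the 9 sites, in Serpinb7 and Serpinb8, read TGAGTCA, and the 6 others have A or T there. With the middle base held to C or G, 2 of 12 windows of the run matched (16.7%) against 5.2% of all windows. Within the run, 5 of 6 genes called higher in CIA against adjuvant held a match, and 2 of 4 genes not called did. Serpinb8, with 2 TGAGTCA sites, was not called, and Serpinb3a, with no match, was called higher. A match is a string of letters and not a measured binding site. Any part of the motif in the changes was not tested.

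Comparing CIA with adjuvant asks which serpins differ in the arthritic paw. A set of 9 serpins rose, and 7 of these are clade B genes: Serpinb5, Serpinb12, Serpinb7, Serpinb2, Serpinb6d, Serpinb3a and Serpinb11. The other 2 are Serpina12 and Serpina3b. The 3 serpins that fell were Serpina6, Serpinb9e and Serpini1. The rises spanned fold changes from 1.48 to 21.9, and the falls were of 1.40-fold to 1.61-fold. Among all 28944 probe sets tested, 4.3% were called higher and 14.2% lower, at a Benjamini-Hochberg adjusted p under 0.05 in a limma fit of all 8 arrays. The calls for 7 of the 9 rises (all but Serpina3b and Serpinb3a) held under every alternative in which they were tested.

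Serpinb5 (maspin), an epithelial clade B protein that does not inhibit proteases in the usual way, gave signals of 5.12 and 4.67 on the adjuvant arrays and 8.91 and 9.79 on the CIA arrays. It was 4.45 ± 0.27 (SE) higher in CIA on the log2 scale, a fold of 21.9 (adjusted p = 1.12e-05). Both CIA arrays lay far above both adjuvant arrays, which were themselves below the control median. Serpinb12, a clade B inhibitor of trypsin-like proteases, was next, with 5.02 and 4.65 in adjuvant against 8.35 and 8.88 in CIA. Its change was 3.78 ± 0.21, a fold of 13.8 (adjusted p = 7.05e-06), and the groups did not overlap.

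Serpinb7 (megsin), whose loss in humans causes a palmoplantar keratosis, rose by 1.91 ± 0.19, from 5.47 and 5.39 to 7.11 and 7.56. Serpinb2 (plasminogen activator inhibitor type 2), an inhibitor of urokinase found in keratinocytes and macrophages, rose by 1.63 ± 0.21, from 5.74 and 5.85 to 7.09 and 7.77. For both genes the groups were separated by more than the gap between replicates, and the adjuvant arrays lay below the control median. Serpinb11, a trypsin inhibitor in the mouse, rose by 1.47 ± 0.23, from 4.80 and 4.86 to 5.97 and 6.62. Serpinb3a, a mouse counterpart of the human squamous cell carcinoma antigens, which block cathepsins and serine proteases, rose by 1.52 ± 0.18, from 3.14 and 2.82 to 4.63 and 4.38. The Serpinb3a signal stayed below the control median on every array, and its call was lost when arrays were weighted by quality.

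Serpinb6d was the clade B gene outside the chromosome 1 run that rose. It is one of the mouse paralogs of Serpinb6a, and it went from 4.26 and 4.35 in adjuvant to 6.12 and 5.69 in CIA, a change of 1.60 ± 0.18 (adjusted p = 0.000338). The 2 CIA arrays stood apart from the other 6 arrays of the study, which ran from 4.17 to 4.37. Only the first CIA array exceeded its control median.

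Among the secreted clades, Serpina12 (vaspin), an adipokine and inhibitor of the skin protease kallikrein 7, was the large exception. Its signals were 5.37 and 5.17 in adjuvant and 7.77 and 7.75 in CIA, a rise of 2.49 ± 0.17 and a fold of 5.62 (adjusted p = 2.01e-05). The CIA arrays differed from each other by far less than from the adjuvant arrays. Serpina3b, one of the mouse paralogs of antichymotrypsin, moved from 5.28 and 5.17 to 5.60 and 5.98, a rise of 0.56 ± 0.17 (adjusted p = 0.0461). That call was lost under 12 of 19 alternatives, among them leaving out any array of the adjuvant, adjuvant+MLIF or CIA+MLIF groups.

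The 3 falls were small and lay below the control median throughout. Serpina6 (corticosteroid-binding globulin), a hormone carrier and not an inhibitor, moved from 5.28 and 5.21 to 4.42 and 4.70, a change of -0.68 ± 0.16. Serpinb9e, a paralog of the granzyme B inhibitor Serpinb9, moved from 5.30 and 5.11 to 4.32 and 4.73, a change of -0.68 ± 0.18. Serpini1 (neuroserpin), an inhibitor of tissue plasminogen activator, moved from 5.39 and 5.26 to 4.84 and 4.83, a change of -0.49 ± 0.14. Although the share of all probe sets without overlap was not counted, the CIA and adjuvant arrays did not overlap for any of the 3. Their adjusted p-values were 0.0201, 0.0328 and 0.0445, and the calls were lost under 10, 14 and 15 of 19 alternatives, including leaving out either adjuvant array. For reference, the median change of all probe sets was -0.25, and 0.01 after quantile normalization.

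**Figure D1:**
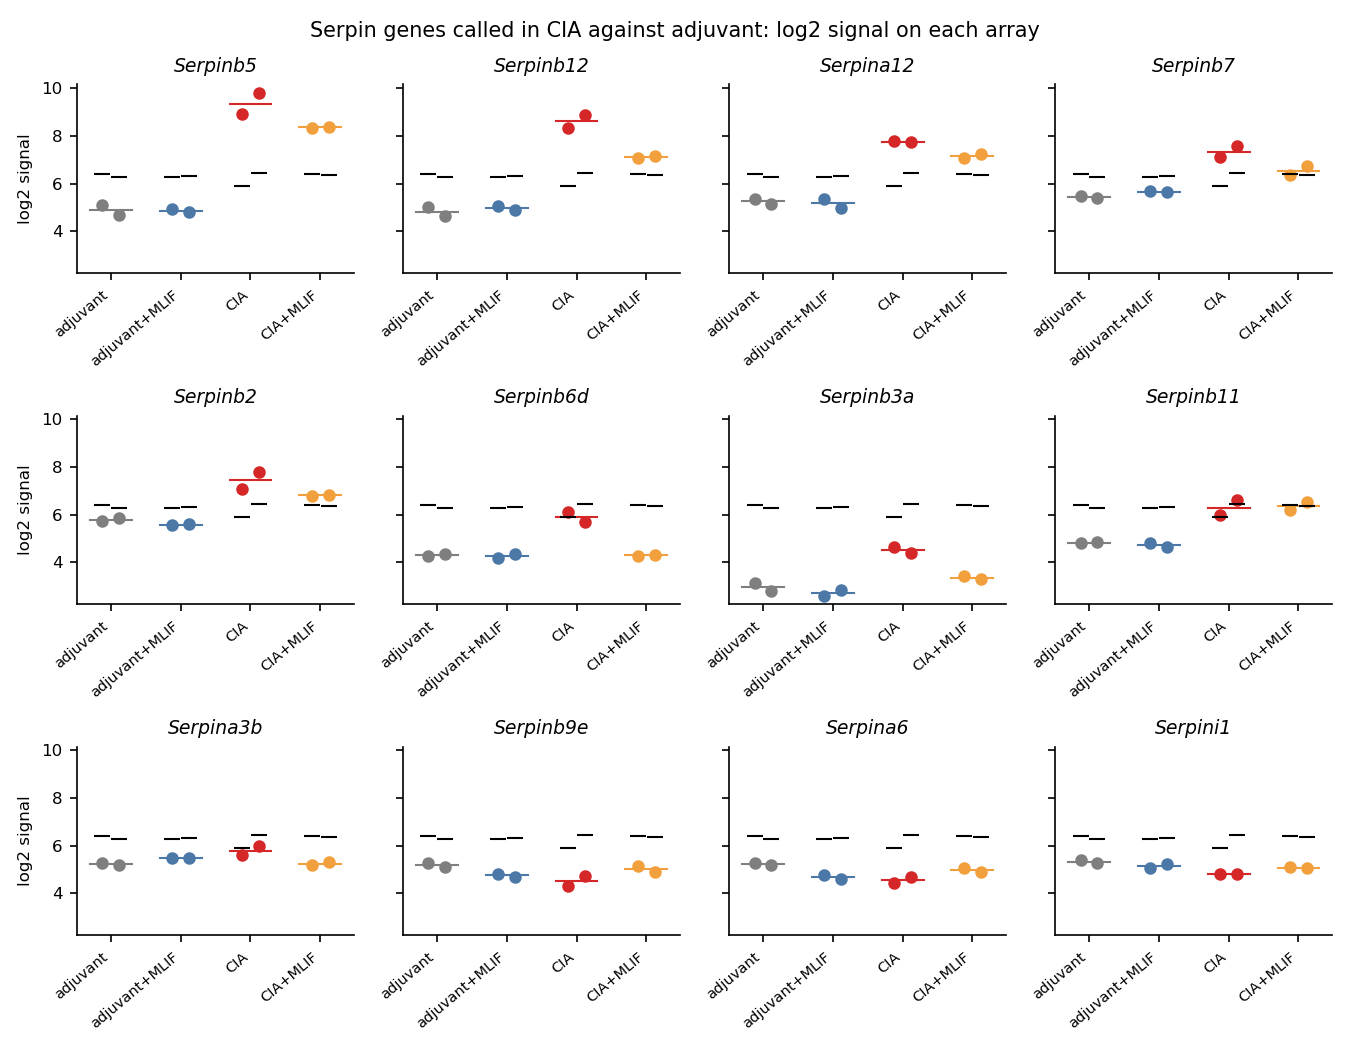
Log2 signal (vertical axis) of the 12 serpins called in CIA against adjuvant, 1 point per array in the adjuvant, adjuvant+MLIF, CIA and CIA+MLIF groups, with coloured lines at group means and black ticks at each array's control median. Serpinb5 went from 5.12 and 4.67 in adjuvant to 8.91 and 9.79 in CIA, while Serpina6, Serpinb9e and Serpini1 stayed below the control ticks on every array.

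The scaling of the first CIA array moves these counts. The share of all probe sets called was computed only for the deposited values. Counts under the alternatives, here and below, therefore cannot be set against the array as a whole. Quantile normalization called 20 serpins higher and 1 lower, against 9 and 3 in the deposited values, and centring each array on its median called 18 higher and 2 lower. Without the first CIA array the counts were 17 higher and 2 lower. Without the second they were 9 higher and 19 lower. In these 2 fits the remaining CIA array is assumed to vary like the other groups.

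Set side by side, clade B and the secreted clades differed in CIA against adjuvant. The median change was 0.33 over the 24 clade B genes and -0.30 over the 22 secreted genes, beside -0.25 over all probe sets, so the secreted clades lay close to the array as a whole. Of the clade B genes 7 were called higher and 1 lower, and of the secreted genes 2 higher and 2 lower. On each array the median clade B signal minus the median secreted signal was -0.44 and -0.43 in adjuvant, -0.47 and -0.55 in adjuvant+MLIF, 0.46 and 0.70 in CIA, and 0.06 and 0.26 in CIA+MLIF. The difference of means was -0.56 and -0.41 in adjuvant, -0.52 and -0.50 in adjuvant+MLIF, 0.17 and 0.44 in CIA, and -0.15 and -0.07 in CIA+MLIF. By either measure all collagen arrays lay above all arrays without collagen, and the CIA arrays above the CIA+MLIF arrays. The sign itself has no meaning, since different probe sets are set against each other. A shift of all values on an array leaves these differences as they are. No test was made of them, since members of a clade are not replicates.

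**Figure D2:**
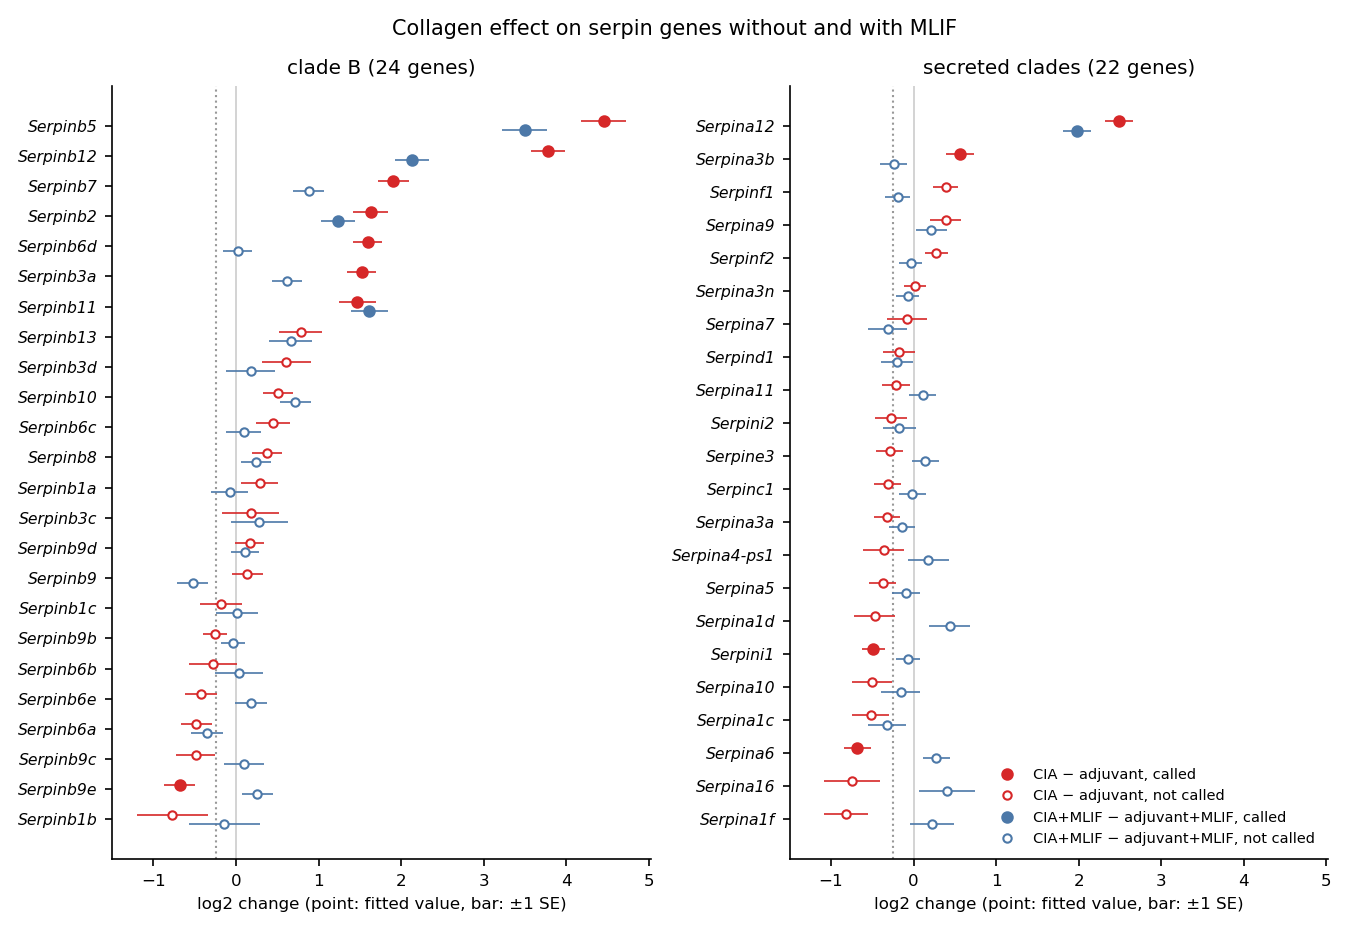
Fitted log2 change of each of the 24 clade B and 22 secreted serpins for CIA minus adjuvant (red) and CIA+MLIF minus adjuvant+MLIF (blue), with bars of ±1 SE, filled points where the change was called and a dotted line at the median of all probe sets without MLIF (-0.25). Serpinb5, Serpinb12 and Serpina12 lie farthest to the right in both contrasts, and most secreted serpins lie near the dotted line.

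Within clade B the rises lay mainly in 1 run of neighbours. In the run from Serpinb5 to Serpinb8, 6 of the 11 measured genes were called higher, 0 lower, and all 11 had a positive change, with a median of 1.47. After quantile normalization, and also without the first CIA array, 11 of 11 were called higher. Without the second CIA array 6 were called higher and 1 lower, so a rise of the whole run depends on which CIA array is kept. The 5 genes not called in the deposited values were Serpinb13 (0.78 ± 0.26, adjusted p = 0.0694), Serpinb3d (0.61 ± 0.30), Serpinb10 (0.51 ± 0.19), Serpinb8 (0.37 ± 0.18) and Serpinb3c (0.18 ± 0.34). Serpinb13, an inhibitor of lysosomal cathepsins in keratinocytes, gave 5.02 and 4.92 in adjuvant and 5.31 and 6.21 in CIA. Its groups did not overlap, but the CIA arrays were far apart.

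The run from Serpinb1a to Serpinb9g, on chromosome 13, behaved otherwise. Of its 9 measured genes 0 were called higher and 1 lower, with a median change of -0.26, close to the -0.25 of all probe sets. It holds inhibitors of the granule proteases of leukocytes. Serpinb1a, which blocks neutrophil elastase, cathepsin G and proteinase 3, gave 7.90 and 8.27 in adjuvant against 8.05 and 8.69 in CIA, and these ranges overlapped. Serpinb9, the granzyme B inhibitor, gave 6.22 and 6.48 against 6.26 and 6.71. In the third run, from Serpinb6d to Serpinb6a, 1 of 4 genes was called higher and the median change was 0.01. Serpinb6a, an inhibitor of cathepsin G and trypsin-like proteases, gave 11.38 and 11.59 in adjuvant and 10.80 and 11.20 in CIA (-0.48 ± 0.19, adjusted p = 0.11). These 3 genes were chosen for their roles after their values were seen.

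**Figure D3:**
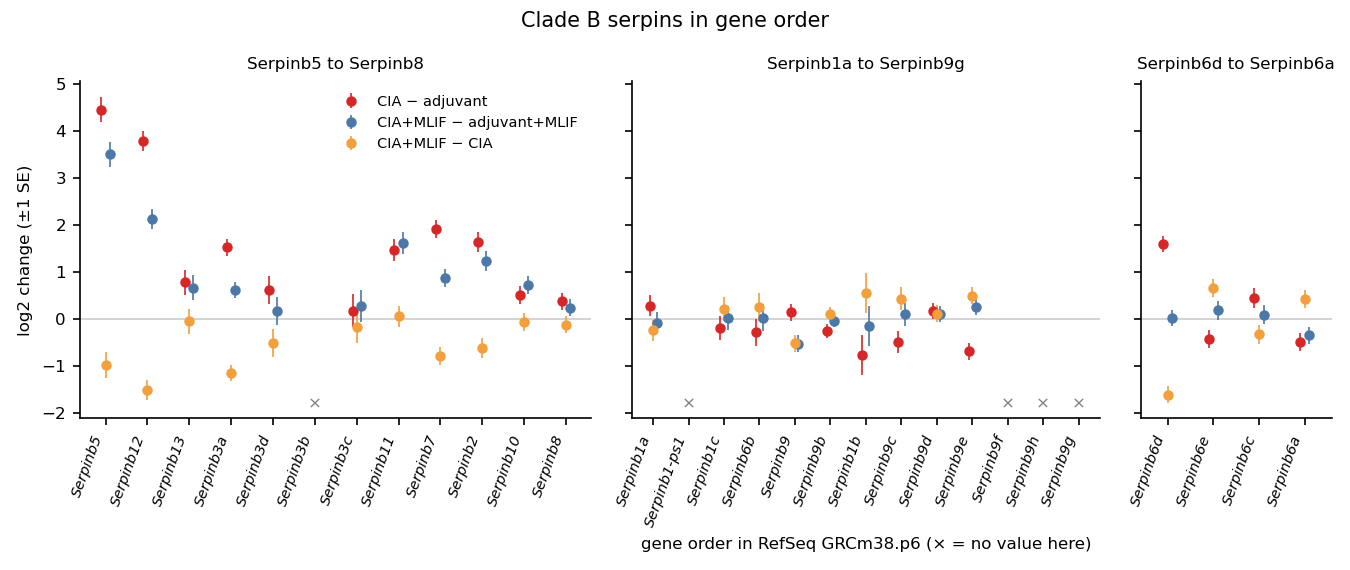
Fitted log2 change (vertical axis, bars ±1 SE) of clade B serpins in RefSeq gene order in 3 runs, for CIA minus adjuvant (red), CIA+MLIF minus adjuvant+MLIF (blue) and CIA+MLIF minus CIA (orange), with crosses for genes that have no value here. All 11 measured genes from Serpinb5 to Serpinb8 have red points above 0, and Serpinb6d alone stands out in the run from Serpinb6d to Serpinb6a.

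Of the secreted serpins, Serpinf1 and Serpina3n gave signals above the control median on all 8 arrays, and neither was called. Serpinf1 (pigment epithelium-derived factor), a secreted antiangiogenic serpin that inhibits no protease, gave 11.22 and 11.46 in adjuvant and 11.65 and 11.80 in CIA (0.39 ± 0.15, adjusted p = 0.108). Serpina3n, an acute-phase inhibitor of leukocyte proteases, gave 10.90 and 10.91 in adjuvant and 10.94 and 10.91 in CIA (0.02 ± 0.14, adjusted p = 0.939). The Serpina3n groups overlapped, and the standard error bounds a change of this gene more tightly than for most members. Serpinc1 (antithrombin), the inhibitor of thrombin, gave 5.76 and 5.71 against 5.24 and 5.60, below the control median on every array. These 3 were likewise chosen for their roles after their values were seen.

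Signals of other cell types moved with the serpins. Over the 13 measured keratinocyte markers of 15 listed, the mean signal relative to the array median was -0.81 and -0.88 in adjuvant, -0.75 and -0.74 in adjuvant+MLIF, 3.55 and 3.48 in CIA, and 2.49 and 2.56 in CIA+MLIF. Between 6 and 7 of the 13 lay above the control median on each adjuvant array, 13 on each CIA array and 12 on each CIA+MLIF array. Of the 13, 12 were called higher in CIA against adjuvant, with a median change of 4.96. The Serpinb5 to Serpinb8 run, on the same scale, stood between -2.02 and -1.91 on the 4 arrays of the adjuvant and adjuvant+MLIF groups, at -0.28 and -0.05 in CIA, and at -0.96 and -0.88 in CIA+MLIF. Both were lowest in the groups without collagen, intermediate in CIA+MLIF and highest in CIA. In bulk paw RNA more cells of a type and more RNA per cell cannot be told apart, and the part of skin in the serpin changes was not tested.

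The 12 neutrophil markers took another order. Their mean relative to the array median was 0.13 and 0.30 in adjuvant, 0.90 and 0.90 in adjuvant+MLIF, 2.63 and 2.52 in CIA, and 0.37 and 0.46 in CIA+MLIF. All 12 were called higher in CIA against adjuvant and all 12 lower in CIA+MLIF against CIA. The secreted serpins stayed between -0.98 and -1.20 on all arrays. Plasma protein markers of hepatocytes, 9 measured, stood at -0.93 to -0.60 with 3 or 4 above the control median, and 1 was called lower. All 11 skeletal muscle markers and all 5 adipocyte markers were called lower in CIA against adjuvant, and 6 of 8 fibroblast markers higher. Their part in the serpin changes was not tested.

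**Figure D4:**
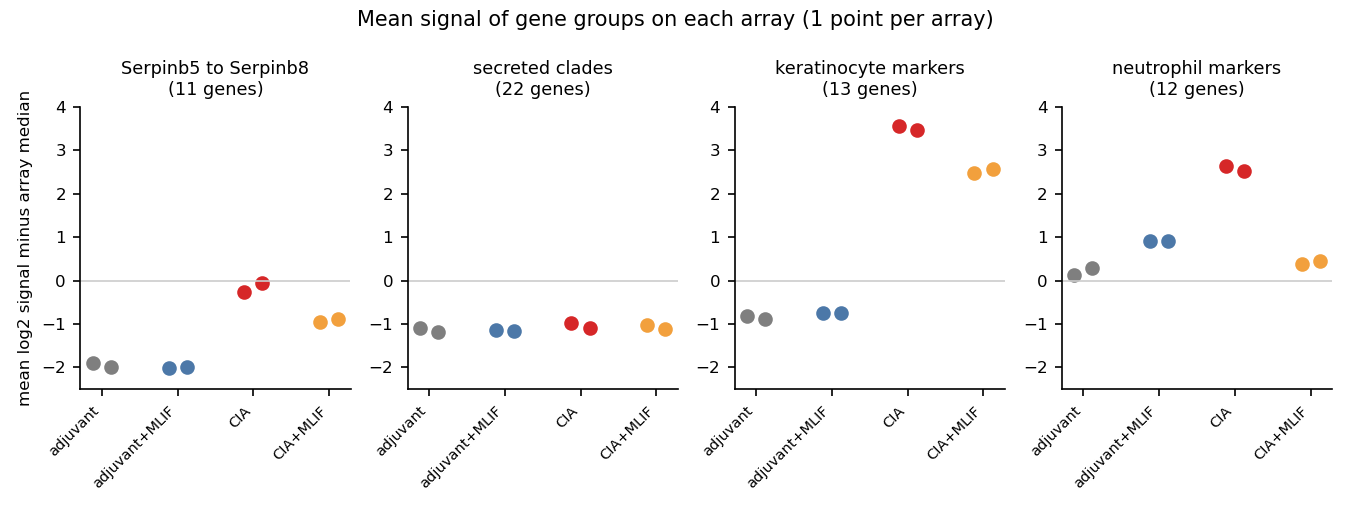
Mean log2 signal minus the array median (vertical axis), 1 point per array in the 4 groups, for the 11 measured genes from Serpinb5 to Serpinb8, the 22 secreted serpins, 13 keratinocyte markers and 12 neutrophil markers. The serpin run and the keratinocyte markers stay well above their adjuvant level in CIA+MLIF (-0.96 and -0.88, and 2.49 and 2.56), the neutrophil markers are at 0.37 and 0.46 there, and the secreted serpins lie between -0.98 and -1.20 throughout.

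Comparing CIA+MLIF with CIA asks how the serpins differ in arthritic mice given MLIF. A set of 6 serpins fell and 0 rose, and all 6 were among the 9 that were higher in CIA: Serpinb6d, Serpinb12, Serpinb3a, Serpinb5, Serpinb7 and Serpina12. Both contrasts use the same CIA arrays, so a high CIA value enters both. Over all probe sets 3.25% were called lower and 11.5% higher. Serpinb6d fell by 1.61 on the log2 scale (SE 0.18, adjusted p = 0.000498), from 6.12 and 5.69 to 4.26 and 4.33, which lies within the range of the adjuvant groups. Its call held under every alternative in which it was tested.

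Serpinb12 fell 2.83-fold (SE 0.21 on the log2 scale), from 8.35 and 8.88 to 7.07 and 7.15. Serpinb3a fell by 1.15 (SE 0.18), from 4.63 and 4.38 to 3.42 and 3.29. Both calls were lost only when arrays were weighted by quality, and both genes stayed above their adjuvant arrays in CIA+MLIF. Serpinb5 fell by 0.98 (SE 0.27, adjusted p = 0.0432), from 8.91 and 9.79 to 8.35 and 8.39. Serpinb7 fell by 0.79 (SE 0.19, adjusted p = 0.0257), from 7.11 and 7.56 to 6.37 and 6.72. Serpina12 fell by 0.60 (SE 0.17, adjusted p = 0.0483), from 7.77 and 7.75 to 7.06 and 7.26.

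For these 3 genes the 2 groups did not overlap, which was not counted over all probe sets, and the calls were less stable. Each was lost when any array of the CIA+MLIF, adjuvant or adjuvant+MLIF groups was left out, and that of Serpina12 also without the first CIA array. The Serpinb5 change was -1.43 without the first CIA array and -0.54 without the second. The median change was -0.10 in clade B and 0.29 in the secreted clades, beside 0.24 over all probe sets. Of the 11 measured genes from Serpinb5 to Serpinb8, 4 were called lower and 10 had a negative change, with a median of -0.50. Serpinb2 and Serpinb11, which were higher in CIA, gave 6.79 and 6.83, and 6.18 and 6.53, in CIA+MLIF and were not called. Here too the scaling matters: quantile normalization called 1 higher and 17 lower, and centring 1 higher and 13 lower. Without the first CIA array 0 were higher and 12 lower, and without the second 18 were higher and 9 lower.

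Comparing CIA+MLIF with adjuvant+MLIF sets mice with collagen against mice without it, where all received MLIF. The labels give the MLIF schedule differently for these groups: a start 1 week before collagen, and a length of 9 weeks. A difference in schedule therefore cannot be told apart from collagen in this contrast. A set of 5 serpins was higher and 0 lower: Serpinb5, Serpinb12, Serpina12, Serpinb11 and Serpinb2. Over all probe sets 0.712% were called higher and 0.0173% lower. Serpinb5 gave 4.93 and 4.80 in adjuvant+MLIF against 8.35 and 8.39 in CIA+MLIF, a change of 3.50 ± 0.27 and a fold of 11.3 (adjusted p = 0.000178). Serpinb12 gave 5.08 and 4.89 against 7.07 and 7.15, a change of 2.13 ± 0.21. Serpina12 gave 5.35 and 5.00 against 7.06 and 7.26, a change of 1.98 ± 0.17. The groups were far apart for all 3, and these calls held under every alternative run.

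Serpinb11 gave 4.83 and 4.65 against 6.18 and 6.53 (1.62 ± 0.23, adjusted p = 0.0103). Serpinb2 gave 5.56 and 5.59 against 6.79 and 6.83 (1.24 ± 0.21, adjusted p = 0.0369). The Serpinb2 call was lost when any array of the CIA+MLIF, adjuvant or adjuvant+MLIF groups was left out, and the Serpinb11 call without either CIA+MLIF array or the second adjuvant+MLIF array. These genes, apart from Serpina12, belong to the Serpinb5 to Serpinb8 run, in which all 11 measured genes had a positive change with a median of 0.72. Keratinocyte markers were called higher for 10 of 13 in this contrast (median 3.70) and neutrophil markers for 0 of 12. Serpinb6d gave 4.17 and 4.37 against 4.26 and 4.33, and these ranges overlapped.

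Whether the change with collagen differed with MLIF was tested as an interaction, the change in mice given MLIF minus that in mice without. The limit on the MLIF schedule applies here too. Serpinb12 (-1.65 ± 0.30, adjusted p = 0.0095) and Serpinb6d (-1.58 ± 0.25, adjusted p = 0.00516) were lower, and Serpina6 (0.96 ± 0.23, adjusted p = 0.0369) was higher. Over all probe sets 1.62% were called lower and 5.62% higher. For Serpinb12 the collagen change was 3.78 without MLIF and 2.13 with it. For Serpinb6d it was 1.60 without and 0.02 with. The Serpinb12 call was lost without the first CIA+MLIF array or the second adjuvant array, and the Serpina6 call without any single array of the adjuvant, adjuvant+MLIF or CIA+MLIF groups.

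Serpina6 moved below the control median on all arrays, at 4.79 and 4.62 in adjuvant+MLIF and 5.08 and 4.89 in CIA+MLIF. The other serpins that were higher in CIA did not pass the test of the difference, which does not show that MLIF left them alike. Their counts depend on the scaling: quantile normalization called 0 higher and 13 lower in the interaction, and centring 2 higher and 9 lower. Without the first CIA array the counts were 2 and 10, and without the second 15 and 6.

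In the absence of collagen, adjuvant+MLIF against adjuvant gave no called serpin. In limma 0 of 46 passed, where 0.0% of all probe sets passed, and 3 had an unadjusted p under 0.05. The share of all probe sets with such a p was not computed, so that count is not read as a result. With arrays weighted by quality 3 serpins were called, and in a fit of these groups alone 1. The 3 with a low unadjusted p were Serpina6 (-0.54 ± 0.16), Serpinb9e (-0.45 ± 0.18) and Serpina3n (0.33 ± 0.14). Serpina3n gave 10.90 and 10.91 in adjuvant and 11.25 and 11.23 in adjuvant+MLIF. The arrays of these groups did not overlap for this gene, but the difference failed the correction. The median change was -0.03 in clade B and 0.03 in the secreted clades.

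The proteases that serpins meet were followed through 7 lists. In the skin serine proteases, 8 of 15 were called higher and 1 lower in CIA against adjuvant. Over all probe sets 4.3% were called higher and 14.2% lower in that contrast. Klk7 (kallikrein 7), which sheds the cornified layer and is inhibited by Serpina12, gave 6.99 and 6.90 in adjuvant and 9.81 and 9.95 in CIA, a rise of 2.93. Klk5 and Klk11 each rose by 2.01, and Hpn (hepsin) fell by 0.94. Among the neutrophil and mast cell serine proteases 4 of 11 were higher and 1 lower. Ctsg (cathepsin G) rose by 1.80, Elane (neutrophil elastase) by 1.67 and Prtn3 (proteinase 3) by 1.30. Serpinb1a, which blocks these enzymes, and Serpinb6a, which blocks cathepsin G, were not called.

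Of the papain-like cysteine proteases 2 of 10 were higher, Ctsk (cathepsin K) of osteoclasts by 2.06 and Ctsb (cathepsin B) by 0.57. Plasminogen activation gave 1 of 7 higher, Plaur (the urokinase receptor) by 0.71. Plau (urokinase), the target of Serpinb2, gave 8.38 and 8.60 in adjuvant and 8.67 and 9.10 in CIA and was not called. Coagulation gave 2 of 17 higher, F3 (tissue factor) by 1.12 and F5 (factor V) by 1.02, and 4 lower. Of the granzymes and caspases 1 of 12 was higher, Casp4 by 1.02.

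Protease inhibitors of other families gave 10 of 25 higher and 4 lower in the same contrast. Spink5, the Kazal-type inhibitor of skin kallikreins, gave 5.71 and 5.69 in adjuvant and 9.42 and 9.88 in CIA, a rise of 3.95. Timp1, an inhibitor of matrix metalloproteases, rose by 2.10 and Csta1, a stefin, by 1.87. Itih5 fell by 1.06. The median changes of the 7 lists were 0.67 for skin serine proteases, 0.30 for cysteine proteases, 0.21 for other inhibitors, 0.04 for plasminogen activation, -0.26 for neutrophil and mast cell proteases, -0.26 for coagulation and -0.35 for granzymes and caspases, beside -0.25 for all probe sets. After quantile normalization 11 skin serine proteases were called higher and 1 lower, 5 cysteine proteases and 3 plasminogen activation genes were higher, coagulation gave 5 higher and 2 lower, and the granzymes and caspases 2 higher and 1 lower.

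In CIA+MLIF against CIA, where 3.25% of all probe sets were called lower and 11.5% higher, 9 of the 25 other inhibitors were lower and 3 higher. Timp1 was at -2.24, Slpi at -1.53 and Spink5 at -1.23. Of the skin serine proteases 4 were lower and 2 higher, with Klk7 at -1.84. The neutrophil and mast cell proteases gave 4 lower and 1 higher, the cysteine proteases 4 lower and 0 higher, plasminogen activation and the granzymes and caspases 1 lower each, and coagulation 1 lower and 4 higher. Coagulation turned to 6 lower and 2 higher after quantile normalization, which also called 11 skin serine proteases, 12 other inhibitors, 8 cysteine proteases and 3 plasminogen activation genes lower. In CIA+MLIF against adjuvant+MLIF the counts were 2 higher for skin serine proteases, 1 higher for other inhibitors, and 0 in either direction in the 5 other lists. Over all probe sets 0.712% were called higher and 0.0173% lower there, so a count of 0 in such short lists says little.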

How the data were processed

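Per the labels, 300 ng of RNA from excised paws went onto each of 8 Affymetrix arrays (Mouse Gene 1.0 ST), 2 in each of 4 groups. The deposited table holds log2 signals, a unit read from the values. Software, background correction and normalization are given by neither the labels nor the table. Of 35557 entries, the first 6613 carry no gene and were taken as array controls by position, and 28944 probe sets were tested with no filter.

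One limma fit (limma 3.58.1, R 4.3.3) of 4 group means gave 5 comparisons, with two-sided moderated tests, Benjamini-Hochberg adjustment over all probe sets and a threshold of 0.05. The fit has 4 residual and 4.96 prior degrees of freedom, and the median standard error of a change was 0.18. The fit was run on simulated data with independent noise and known changes. No array was shifted as a whole there, so that run does not bear on the low median of the first CIA array. The number of arrays limits the precision.

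Symbols came from the platform annotation, and all 46 members are in RefSeq (GRCm38.p6), the source of gene order and promoter windows. Of 48 probe sets with 1 Serpin symbol, Serpinh1 and Serping1 were left out by the selection, and 5 with several serpin symbols are given apart. A run joins serpin genes with at most 3 other genes between neighbours. All members that passed were named, with the values of each array for up to 8 rises and 8 falls, and from the pathway lists up to 3 passing genes each way, plus genes named for their role. There were 18 lists of 188 genes, 180 of them measured. Members and lists were chosen with earlier results of these data known, and are described by counts and medians with no test. Alternatives covered scaling, signal filter, variance model, array weights, replicate block, threshold and leaving out each array. Python 3.11.15 with Matplotlib 3.10.9 made the figures.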

Additional observations from a re-analysis of the deposited data

Results flagged for a closer look

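The change with MLIF differed between collagen and adjuvant mice, by the interaction test, for 3 serpins: Serpinb12 (-1.65 on the log2 scale), Serpinb6d (-1.58) and Serpina6 (0.96). Serpinb6d lay between 4.17 and 4.37 on all arrays but the 2 CIA arrays.

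Probe sets annotated to several serpins at once stand outside the 46 genes and carried changes of their own. For the pair shared by Serpina1a to Serpina1e, the paralogs of alpha-1-antitrypsin, the log2 changes in CIA against adjuvant were -1.80 and -1.42, with adjusted p-values of 0.000117 and 0.000531 in limma. Both were higher in CIA+MLIF than in CIA, by 1.40 and 1.22. The pair gave group means of 8.31 and 9.32 in adjuvant and 6.51 and 7.91 in CIA. Of the single-gene members of that family, Serpina1c (-0.52 ± 0.23), Serpina1d (-0.47) and Serpina1f (-0.82) were not called. These members lay below the control median on every array. Serpinb9d, Serpinb9e, Serpinb9f and Serpinb9g share 3 probe sets. The changes in CIA against adjuvant were -0.56 and -0.62 for the 2 that were called and -0.44 for the other (adjusted p = 0.0719 in limma, not called), beside -0.68 for Serpinb9e alone and -0.25 for the median of all probe sets.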

How the results depend on the processing

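Of 46 serpins, 12 were called in CIA against adjuvant, 6 in CIA+MLIF against CIA, 5 in CIA+MLIF against adjuvant+MLIF, 0 in adjuvant+MLIF against adjuvant and 3 in the interaction. No called change of a named serpin turned its direction under any alternative run, and the direction of changes that were not called was not followed. In that order of comparisons, the counts were 21, 18, 6, 0 and 13 with quantile normalization, 20, 14, 6, 0 and 11 with arrays centred on their medians, and 22, 18, 7, 0 and 14 with quantile normalization and the first CIA array left out, an alternative chosen after seeing the data. Leaving out each array in turn gave 8 to 28, 3 to 27, 3 to 6, 0 to 0 and 1 to 21. The extremes of 28, 27 and 21 are those without the second CIA array, and the counts without the first were 19, 12 and 12. Array weights gave 7 in CIA against adjuvant, 1 in CIA+MLIF against CIA, 8 in CIA+MLIF against adjuvant+MLIF and 3 in adjuvant+MLIF against adjuvant, where fitting only the groups compared gave 1. Averaging the adjuvant+MLIF arrays gave 3 in CIA+MLIF against CIA and 3 in CIA+MLIF against adjuvant+MLIF, as did a threshold of 0.01. A threshold of 0.1 gave 14 in CIA+MLIF against CIA and 7 in the interaction. Leaving out the lowest tercile of probe sets by mean signal kept 14 serpins and called 5 in CIA against adjuvant. Some of these settings also use fewer genes or arrays, and the cause of these moves was not tested.

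The clade B minus secreted median change was 0.63, -0.39, 0.23, -0.06 and -0.33 in the same order. With the lowest tercile left out it was 0.86 in CIA against adjuvant and 0.61 in CIA+MLIF against adjuvant+MLIF. Leaving out 1 array at a time gave -0.63 to -0.26 in CIA+MLIF against CIA and -0.58 to -0.18 in the interaction. The labels do not say that replicate numbers pair the arrays, and differences between replicates correlated between groups at -0.11 to 0.39. The fit with a replicate block called 10, 5, 5, 0 and 2. Fitting only the groups compared gives no value for the interaction.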

Other observations

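The 2 CIA arrays were farthest apart for Serpinb1b, Serpinb3c and Serpina16. Serpinb3c gave 4.30 and 5.60 there, with 4.67 and 4.86 in adjuvant, so that its CIA values lay on either side of the adjuvant values.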
